A study of Mus musculus with 16 samples.

Results

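The annexins and the S100 proteins are 2 families of calcium-binding proteins, and their transcripts were followed in cultured mouse germ cells under FGF treatment. The genes were taken by a rule on names, which was set with earlier results of these data known: every protein-coding gene of the deposited table called Anxa or S100a with a number, together with S100b and S100g. This rule gave 26 of the 54432 genes, 11 annexins and 15 S100 genes. THY-1+ germ cells from C57 LacZ mouse pups, cultures enriched for spermatogonial stem cells, were grown on STO feeders, a mouse fibroblast line, in serum-free medium. Before the experiment the cultures were kept with 1 ng/mL FGF2, and they were used between passages 9 and 12. For a week all groups then had GDNF at 20 ng/mL together with its receptor GFRα1 at 150 ng/mL, and either no FGF (control, which had BSA alone), FGF9 at 1 or 20 ng/mL, or FGF2 at 1 ng/mL. Germ cells were collected from the feeder by gentle blowing, and their mRNA was sequenced from stranded libraries. The control is therefore a group from which FGF2 had been withdrawn, as it had been from both FGF9 groups, and only the FGF2 group still had it. Each RNA sample is bulk RNA of a culture that is mostly but not wholly germ cells. The labels list 16 samples, 4 per group, whereas the title of the deposited table names 12 libraries. The study's figure legend for these RNA-seq data gives n = 3, so 3 per group were assumed wherever a number of libraries was needed. The labels number the replicates by culture, 6 to 9, with each number once in every treatment, but do not say what same-numbered samples share.

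The deposited table gives, for each gene, a mean over all libraries and 3 comparisons with control, and no value per library. Group levels in this text are therefore derived means, that is normalized counts computed for each group from the overall mean and the fold changes. Their 95% intervals were computed from the fitted model, with 3 libraries per group assumed, and show the uncertainty of each mean. They are not an SD between cultures. The depth of each library is unknown, and p-values rest on the spread between cultures as the model estimated it. A gene was tested when its mean over all libraries was at least 10 normalized counts, and it is called higher or lower when its p, adjusted by the Benjamini-Hochberg method over all 17755 genes tested, was under 0.05.

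Annexins bind negatively charged phospholipids of the membrane when calcium rises, through a conserved core of repeats, and take part in membrane repair, vesicle traffic and the anchoring of the actin cortex. S100 proteins are small dimers with EF-hand calcium sites that have no enzyme activity of their own and act by binding target proteins, annexins among them. The best known pairs are annexin A2 with S100a10 and annexin A1 with S100a11. Several members are abundant in fibroblasts and other somatic cells.

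Most S100 genes lie together on chromosome 3 of the mouse. In GRCm38, 13 of the 15 S100 genes were annotated there, 11 of them in a block of 185 kb that starts at S100a1, while S100a11 and S100a10 lay 3009 and 3044 kb from that start. S100a4 (ENSMUSG00000001020) was at chr3:90603771-90606045 and S100a6 (ENSMUSG00000001025) at chr3:90612882-90624181, both on the plus strand with S100a5 between them. Anxa1 (ENSMUSG00000024659) was at chr19:20373428-20390944 on the minus strand. The bases upstream of the RefSeq start of these 3 genes (GRCm38.p6) are shown because these genes had the largest significant rises with 20 ng/mL FGF9 among the members, and capitals mark the TATA box motif TATAAA.
S100a4, chr3:90603520-90603769, plus strand: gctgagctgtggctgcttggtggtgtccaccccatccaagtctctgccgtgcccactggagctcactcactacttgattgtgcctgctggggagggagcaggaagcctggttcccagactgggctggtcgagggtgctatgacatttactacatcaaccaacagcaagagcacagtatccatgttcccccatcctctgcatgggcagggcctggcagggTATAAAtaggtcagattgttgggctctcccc
S100a6, chr3:90612644-90612881, plus strand: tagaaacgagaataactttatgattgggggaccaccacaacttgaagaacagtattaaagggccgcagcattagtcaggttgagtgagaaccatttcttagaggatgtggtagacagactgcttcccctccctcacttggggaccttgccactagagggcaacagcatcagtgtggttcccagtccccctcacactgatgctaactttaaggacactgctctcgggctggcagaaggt
Anxa1, chr19:20390682-20390711, minus strand: tcatatccTATAAAatcaggagtccaaccc
In S100a4 and Anxa1 the TATAAA motif began 31 and 32 bases before the start. In S100a6 none of the 5 motifs searched was found in the 250 bases before the start. The 5 motifs, read on both strands, were TATAAA, the AP-1 site TGANTCA, the Sp1 site GGGCGG, the TEAD site GGAATG and the CArG box of serum response factor, and they were present in 12.4%, 6.75%, 32.7%, 12.6% and 1.47% of all 32851 promoter windows of that length. The Anxa1 window also held GGAATG, 236 bases before the start. Another annotated Anxa1 transcript begins further upstream and covers this window, so only 30 bases of it are printed. For S100a6 the 12 bases next to the start lie in annotated exons and are not printed. A RefSeq promoter was matched for 21 of the 26 genes and was missing for Anxa3, Anxa6, S100a10, S100a14 and S100a2. A matching run of letters describes the sequence and was not tested as a binding site.

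Of the 26 genes, 15 reached the minimum mean of 10 and were tested, 9 annexins and 6 S100 genes. S100a2 stood just inside this minimum with a mean of 10.4 and S100a1 just outside it with 9.70. The other genes under it were S100a16, S100a3, Anxa8, S100a14, S100b, S100a8 and Anxa10, with means between 0.0824 and 6.50. S100a5, S100a9 and S100g were listed at 0. The neutrophil genes S100a8 and S100a9, the glial S100b and the intestinal calbindin gene S100g were thus near or at 0 in every group. Per kilobase of the longest coding transcript, the control level was highest for Anxa7 (1048 derived normalized counts per kb), followed by S100a11 (648), Anxa11 (414), S100a6 (409) and Anxa2 (400). On the same scale Anxa1 was at 18.4 and S100a4 at 73.5 in the control, and they were at 374 and 911 in cultures with FGF9 at 20 ng/mL, where Anxa7 was at 1154 and S100a6 at 1133.

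With 20 ng/mL FGF9, Anxa1, S100a4, S100a6 and S100a10 were higher than in control and S100a2 was lower, while 10 of the 15 genes tested did not pass the test. Of all genes tested in this comparison 2.75% were called, 1.76% higher and 0.986% lower. The median log2 fold change was 0.62 over the 15 genes and 0.00 over all genes tested, and 12 of the 15 estimates were above 0. By the DESeq2 test behind these calls, 10 of the 15 had an unadjusted p under 0.05, against 12.0% of all genes tested. S100a2 passed the minimum mean only through the control, so that it had to differ, and the counts above are given as a description. In bulk RNA, fewer cells of a type and less RNA per cell cannot be told apart.

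**Figure D1:**
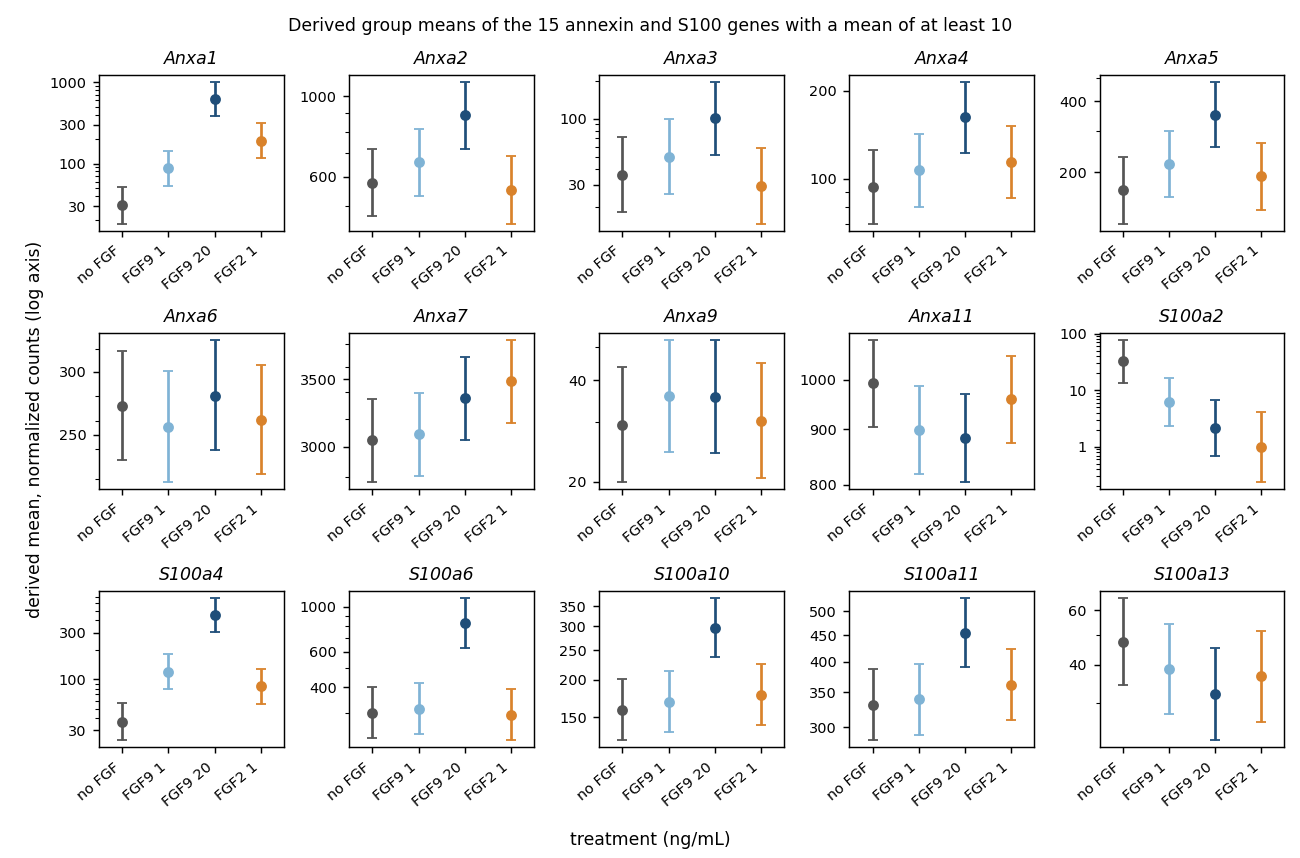
Derived group means in normalized counts (log axis, 1 panel per gene, each with its own range) of the 15 genes tested, for no FGF, FGF9 at 1 or 20 ng/mL and FGF2 at 1 ng/mL; points are derived means and bars their 95% intervals. Anxa1 goes from 30.8 in the control to 626 with 20 ng/mL FGF9, S100a6 is at 828 with 20 ng/mL FGF9 against 293 to 314 in the other groups, and S100a2 is at 32.4 in the control and at 6.17 or less in the treated groups.

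Anxa1, an annexin that binds formyl peptide receptors and restrains inflammation, had derived means of 30.8 (95% interval 18.2 to 52.1) in control cultures, 87.6 (53.1 to 144) at the low and 626 (385 to 1019) at the high FGF9 dose, and 191 (117 to 312) with FGF2. The intervals of the control and of 20 ng/mL FGF9 were far apart, and those of 1 ng/mL FGF9 and FGF2 overlapped. Compared with control, Anxa1 was 20.3-fold higher at the high FGF9 dose (interval 9.98 to 41.5, adjusted p = 2.01e-13). It was 6.21-fold higher with FGF2 (3.00 to 12.8, adjusted p = 0.00367), the only member called higher with that factor. With 1 ng/mL FGF9 the ratio was 2.84 (1.38 to 5.86), which did not pass the test (adjusted p = 0.581).

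S100a4, known also as fibroblast-specific protein, binds nonmuscle myosin and is linked to cell motility. Its derived means were 36.6 (23.7 to 56.6) in control cultures, 119 (79.3 to 179) at the low and 454 (305 to 675) at the high FGF9 dose, and 85.0 (56.3 to 128) with FGF2. The group treated with 20 ng/mL FGF9 lay above the intervals of the other 3. S100a4 was 12.4-fold higher than in control at this dose (6.89 to 22.3, adjusted p = 1.01e-13). Its ratios of 3.26 with 1 ng/mL FGF9 (1.79 to 5.93, adjusted p = 0.0967) and 2.32 with FGF2 (1.27 to 4.23, adjusted p = 0.446) did not pass. A predicted protein-coding gene, Gm42674, shares exons with S100a3 and S100a4 on the same strand, so that reads could be split between them. Its derived mean was at most 2.23 in any group and highest in the control.

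S100a6, or calcyclin, is a partner of the calcyclin-binding protein Cacybp and of several annexins. Its derived means were 299 (224 to 400) in control cultures, 314 (235 to 420) at the low and 828 (622 to 1102) at the high FGF9 dose, and 293 (219 to 392) with FGF2. The high-dose group stood above the other 3, whose intervals overlapped almost wholly. The fold change was 2.77 at 20 ng/mL FGF9 (1.84 to 4.15, adjusted p = 1.52e-04), against 1.05 (0.695 to 1.59) at 1 ng/mL and 0.981 (0.651 to 1.48) with FGF2.

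S100a10, or p11, has lost calcium binding and binds annexin A2 in a tetramer at the plasma membrane. It had derived means of 159 (126 to 201) in control cultures, 169 (134 to 213) at the low and 297 (237 to 372) at the high FGF9 dose, and 178 (141 to 225) with FGF2. Again the high-dose group was the one above the rest. The increase at 20 ng/mL FGF9 was 1.86-fold (1.35 to 2.58, adjusted p = 0.0105). Its partner Anxa2, which also binds plasminogen at the cell surface, had derived means of 579 (467 to 717), 658 (531 to 815), 888 (718 to 1098) and 553 (446 to 686) in the same order of groups. The Anxa2 ratio at 20 ng/mL FGF9 was 1.53 (1.13 to 2.07), and it did not pass the test (adjusted p = 0.122). S100a11, the partner of annexin A1, had derived means of 331 (283 to 387), 339 (290 to 396), 455 (391 to 530) and 362 (310 to 423), again in that order. Its ratio at the high dose was 1.38 (1.11 to 1.71), which did not pass (adjusted p = 0.0988).

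S100a2, which binds p53 and is known mainly from human epithelial cells, went the other way. Its derived means were 32.4 (13.5 to 77.7) in control cultures, 6.17 (2.35 to 16.2) at the low and 2.13 (0.674 to 6.75) at the high FGF9 dose, and 0.986 (0.238 to 4.09) with FGF2. The control lay above the intervals of 20 ng/mL FGF9 and FGF2 and overlapped that of 1 ng/mL FGF9. S100a2 was 15.2-fold lower with 20 ng/mL FGF9 (ratio 0.0658, 0.0155 to 0.279, adjusted p = 0.0131) and 32.9-fold lower with FGF2 (ratio 0.0304, 0.00647 to 0.143, adjusted p = 0.0132). With 1 ng/mL FGF9 the ratio was 0.191 (0.0447 to 0.813, adjusted p = 1.00). S100a2 reached the minimum mean through the control alone, so a gene tested in this way had to differ, and these ratios and p-values are a description. All its levels are low, the intervals are wide, and how the counts were shared among the control libraries was not analysed here. The only coding transcript annotated for S100a2 has 315 bases and lies within the span of S100a3 without sharing an exon with it.

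**Figure D2:**
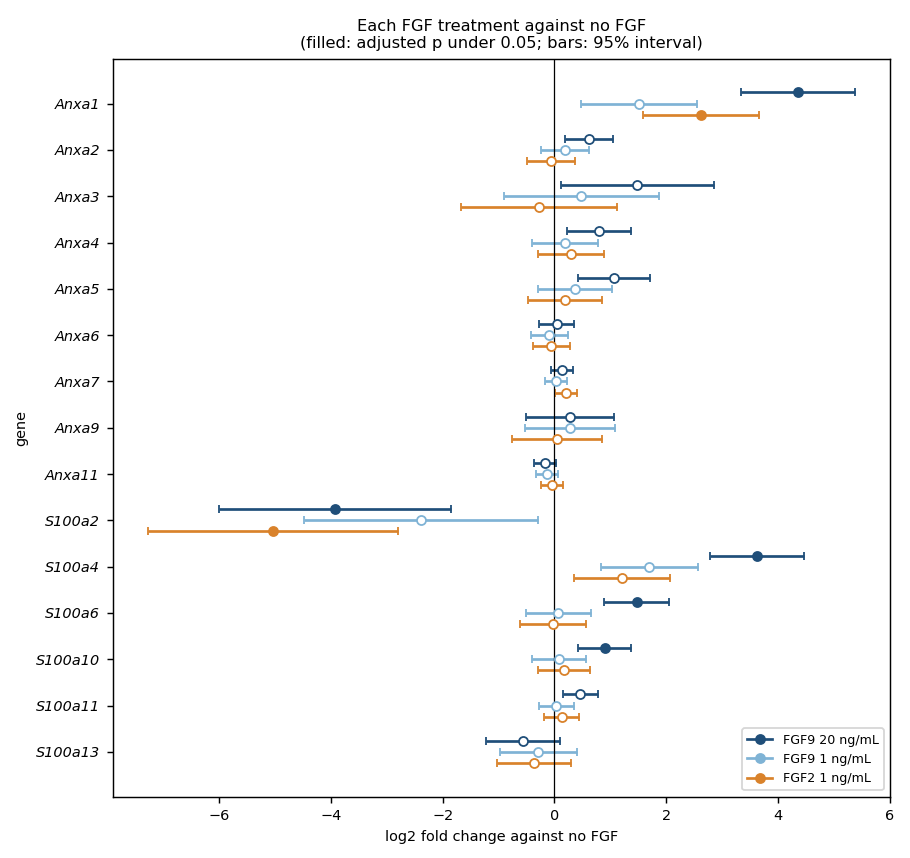
Log2 fold change of each FGF treatment against no FGF (x axis) for the 15 genes tested (y axis), with 95% intervals; filled points had an adjusted p under 0.05. Filled points are Anxa1, S100a4, S100a6, S100a10 and S100a2 for 20 ng/mL FGF9 and Anxa1 and S100a2 for FGF2, and there is none for 1 ng/mL FGF9.

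The remaining annexins fell into a set with estimates above 1 and intervals that also lay above 1, and a set near 1. Anxa5, which binds phosphatidylserine and is used as a probe of dying cells, was closest to the threshold, with derived means of 168 (121 to 232) in control and 351 (255 to 484) in high-dose cultures and a ratio of 2.09 (1.33 to 3.30, adjusted p = 0.0518). Anxa4, an annexin of epithelial membranes, had a ratio of 1.74 (1.17 to 2.59, adjusted p = 0.132). Anxa3, an annexin of neutrophil granules, had a ratio of 2.79 (1.07 to 7.26, adjusted p = 0.358), as large as that of S100a6 but with a much wider interval. None of these ratios was distinguished from 1 after adjustment.

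Anxa7, Anxa11, Anxa6 and Anxa9 had estimates near 1. Anxa7 (synexin, named for its part in the fusion of secretory granules) was the most abundant member, with derived means between 3044 and 3485, and its ratio at 20 ng/mL FGF9 was 1.10 (0.963 to 1.26). Anxa11, which links RNA granules to lysosomes, had derived means between 884 and 992 and a ratio of 0.891 (0.782 to 1.02). For these 2 genes the intervals exclude changes of the size seen in S100a10. Anxa6, which has a duplicated annexin core, had a ratio of 1.03 (0.825 to 1.29), and Anxa9, whose core has lost most of its calcium sites, had one of 1.21 (0.704 to 2.08). Anxa9 overlaps the exons of Mindy1 on the opposite strand and of 6330562C20Rik on its own, so its low count is uncertain. S100a13, which takes part in the release of FGF1 from cells, had derived means of 47.5 in control and 32.2 in high-dose cultures, a ratio of 0.677 (0.424 to 1.08, adjusted p = 0.573).

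**Figure D3:**
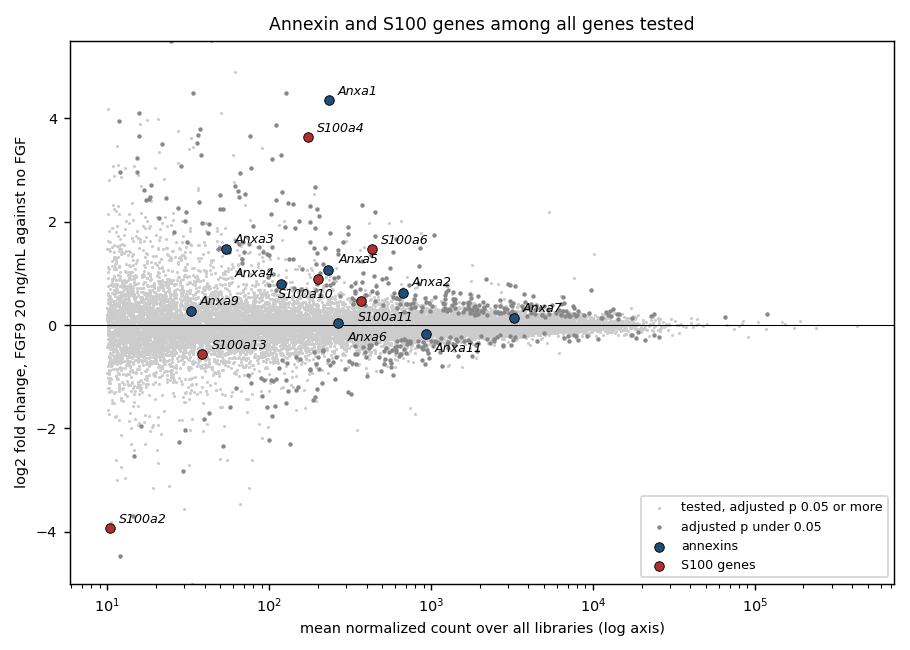
Log2 fold change at 20 ng/mL FGF9 against no FGF (y axis) by mean normalized count over all libraries (x axis, log) for the 17755 genes tested; dark grey points had an adjusted p under 0.05, blue points are annexins and red points S100 genes, and 20 genes lie outside the range of -5 to 5.5 drawn. Anxa1 (4.35) and S100a4 (3.63) stand at the top edge of genes with a like mean, S100a2 (-3.93) near the bottom at a mean of 10.4, and Anxa6, Anxa7 and Anxa11 near 0.

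At 1 ng/mL FGF9 none of the 15 genes was called, where 0.0789% of all genes tested were called, 0.0282% higher and 0.0507% lower. By the DESeq2 test behind these p-values, 3 of the 15 had an unadjusted p under 0.05, namely S100a4, Anxa1 and S100a2, the last of them tested only through its control level, against 4.31% of all genes tested. The median log2 fold change of the 15 genes was 0.08. With FGF2, Anxa1 was higher and S100a2 lower, where 0.146% of all genes tested were called (0.113% higher, 0.0338% lower), and the median over the 15 genes was 0.04. There 4 of the 15 had an unadjusted p under 0.05 by the DESeq2 test, namely Anxa1, S100a2, S100a4 and Anxa7, against 5.20% of all genes tested. Neither the call of Anxa1 nor that of S100a2 can be weighed against the share over all genes. The members were chosen with earlier results of these data known, and S100a2 was tested only because of its control level. With a minimum mean of 50, S100a2 was not tested. The 3 comparisons share their control cultures, so their values are not independent of each other.

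The FGF treatments were then compared with each other, by contrasts reconstructed from the table over 17726 genes. S100a2 was outside these tests, since its derived mean with FGF2 was under 1. Between the FGF9 doses, 4 of the 14 remaining genes were higher at 20 than at 1 ng/mL and none was lower, where 2.57% of all genes tested were called, 1.72% higher and 0.846% lower. The ratios were 7.15 for Anxa1 (3.56 to 14.4, adjusted p = 1.27e-05), 3.80 for S100a4 (2.15 to 6.72, adjusted p = 6.60e-04), 2.64 for S100a6 (1.76 to 3.96, adjusted p = 5.21e-04) and 1.76 for S100a10 (1.27 to 2.44, adjusted p = 0.0318). These are the genes that were also higher than in control, and the dose comparison uses the same cultures with 20 ng/mL FGF9. By the reconstructed test, 7 of the 14 members had an unadjusted p under 0.05 between the doses, against 11.8% of all genes tested.

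At 20 ng/mL FGF9, S100a4 was 5.34-fold higher (3.01 to 9.46, adjusted p = 7.70e-06) and S100a6 2.82-fold higher (1.88 to 4.24, adjusted p = 2.39e-04) than with FGF2, and they were the only members called. Of all genes tested in that contrast 1.17% were called, 0.807% higher and 0.361% lower. By the reconstructed test, 8 of the 14 members had an unadjusted p under 0.05, against 8.26% of all genes tested. The doses of these factors differ, 20 against 1 ng/mL. For Anxa1 the ratio was 3.28 (1.64 to 6.55) and did not pass (adjusted p = 0.0592), and for S100a10 it was 1.66 (1.20 to 2.30, adjusted p = 0.116). By the estimates alone, the FGF2 group lay below the low FGF9 dose for S100a4 and above it for Anxa1.

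At the matched dose of 1 ng/mL, FGF9 and FGF2 did not differ significantly in any of the 14 genes, where 0.406% of all genes tested were called, 0.0846% higher and 0.322% lower. By the same reconstructed test, 1 gene had an unadjusted p under 0.05, as had 7.07% of all genes tested. It was Anxa1, with a ratio of FGF9 to FGF2 of 0.458 (0.227 to 0.924, adjusted p = 0.585). For S100a4 the ratio was 1.40 (0.786 to 2.50), for S100a6 1.07 (0.710 to 1.61) and for S100a10 0.945 (0.680 to 1.31). These intervals still hold differences of moderate size, so the factors are not shown to act alike on these genes.

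**Figure D4:**
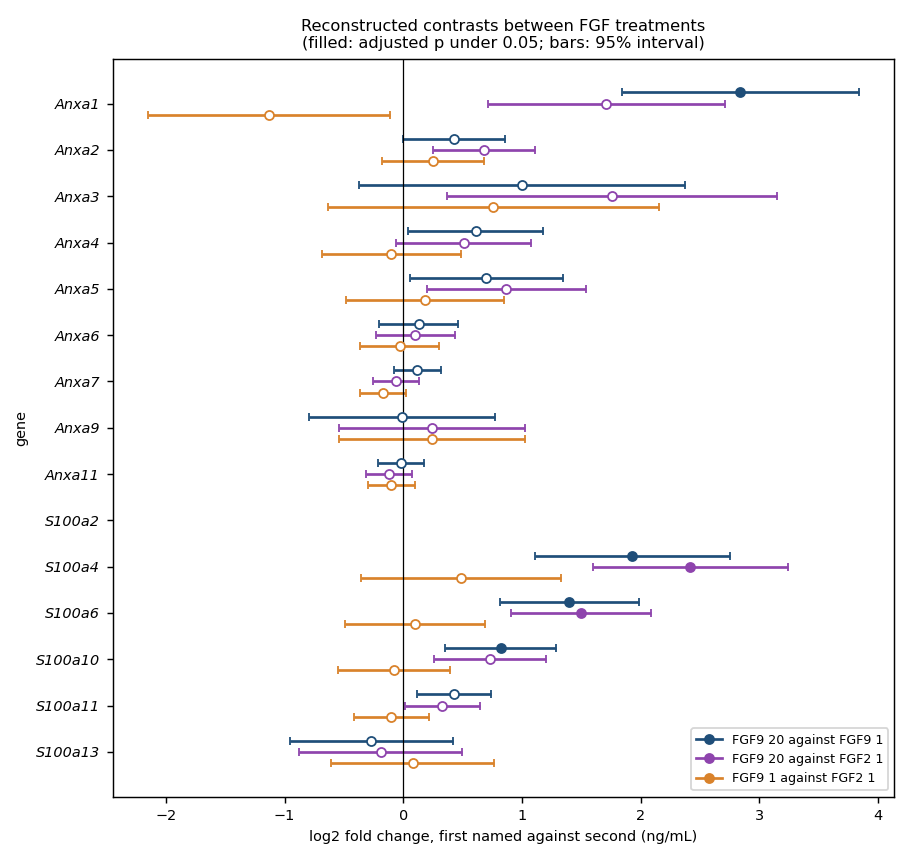
Log2 fold change between FGF treatments (x axis, first named against second, doses in ng/mL) for the genes tested (y axis), with 95% intervals; filled points had an adjusted p under 0.05, and S100a2 has no point because it was outside these tests. Anxa1, S100a4, S100a6 and S100a10 are filled for 20 against 1 ng/mL FGF9, S100a4 and S100a6 for 20 ng/mL FGF9 against FGF2, and no gene is filled for FGF9 against FGF2 at 1 ng/mL.

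Within the block on chromosome 3, S100a4 and S100a6 were higher than in control at the high FGF9 dose. The nearby S100a2 was lower, but it reached the minimum mean through the control alone and so had to differ. Its values here are a description, and the difference between genes was not tested. From S100a2 at 79.2 kb from the first start to S100a6 at 102 kb, the log2 fold change at the high FGF9 dose was -3.93 for S100a2, 3.63 for S100a4 and 1.47 for S100a6, and S100a5 between the last named was listed at 0. With FGF2 the same genes had -5.04, 1.21 and -0.03. The genes at the other end of the block, S100a1 and S100a13, whose spans are 42 bases apart on opposite strands, had -0.82 and -0.56 with 20 ng/mL FGF9, of which S100a1 was not tested and S100a13 did not pass.

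**Figure D5:**
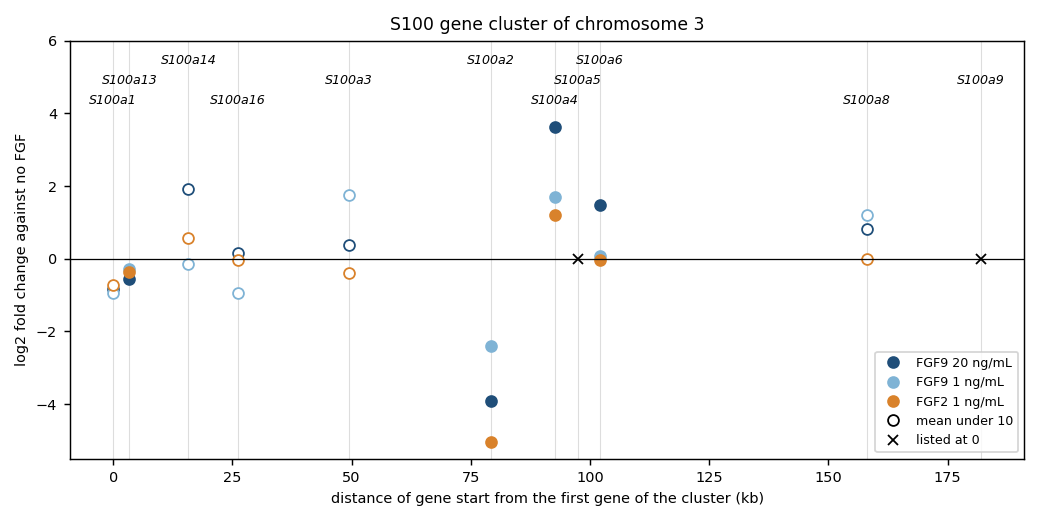
Log2 fold change of each FGF treatment against no FGF (y axis) for the 11 S100 genes of the block on chromosome 3, by distance of the gene start from the first gene (x axis, kb); open circles are genes with a mean under 10 and crosses genes listed at 0. S100a2 lies below 0 in all 3 treatments (-2.39 to -5.04) and the nearby S100a4 above 0 in all 3 (1.21 to 3.63). S100a2 reached the minimum mean through the control alone, and the 3 treatments share that control.

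Markers of the feeder moved in the same comparison. Of 24 fibroblast markers none was at 0, 21 were tested, and 4 were higher with 20 ng/mL FGF9: Vim (3.36-fold), Bgn (3.32-fold), Dcn (3.05-fold) and Sparc (2.60-fold), with a median of 0.39 on the log2 scale over the 21. Of all genes tested 1.76% were called higher there. Of the 21 markers 17 had estimates above 0 and 13 an unadjusted p under 0.05, as had 12.0% of all genes tested. Their summed derived mean was 21791 in control cultures, 23277 at the low and 27793 at the high FGF9 dose, and 22900 with FGF2. None of the 21 was called with 1 ng/mL FGF9 or with FGF2, where 3 and 1 had an unadjusted p under 0.05 in the DESeq2 test, against 4.31% and 5.20% of all genes tested. Against FGF2, the same 4 of the 21 markers were called higher with 20 ng/mL FGF9, where 0.807% of all genes tested were. Against 1 ng/mL FGF9, Vim (2.97-fold) and Fstl1 (1.38-fold) were called higher, where 1.72% of all genes tested were. Both contrasts use the same cultures with 20 ng/mL FGF9 as the comparison with control. The part of feeder cells in the higher values of Anxa1, S100a4, S100a6 and S100a10 was not tested. All 14 germ cell markers were tested and summed to between 133002 and 137239 in the 4 groups. Of them Id4 was higher (1.41-fold) and Tex101 lower (1.24-fold) at 20 ng/mL FGF9, where 2.75% of all genes tested were called. By the DESeq2 test 4 of the 14 had an unadjusted p under 0.05 at 20 ng/mL FGF9, 0 at 1 ng/mL FGF9 and 6 with FGF2. The shares of all genes tested were 12.0%, 4.31% and 5.20%, so the flat sum does not show that single markers were unchanged. The markers of Sertoli cells, macrophages and neutrophils, endothelium and Leydig cells summed to at most 888, 255, 719 and 88.1, and the Leydig gene Hsd3b1 was at 0. Of these lists 5 of 8, 2 of 8, 4 of 4 and 1 of 5 genes were tested, and none was called in any comparison. The share of all genes tested that was called lay between 0.0789% and 2.75%, depending on the comparison. With so few genes tested, the absence of calls does not show that these markers were unchanged.

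Among 43 genes known as partners or receptors of these families, 35 were tested, and 2 were higher and 1 lower with 20 ng/mL FGF9, where 1.76% of all genes tested were higher and 0.986% lower. Their median log2 fold change was -0.03. The higher genes were Ahnak and Ahnak2, giant scaffold proteins, of which Ahnak binds the complex of S100a10 with annexin A2 at the membrane. Ahnak2 had derived means of 137 in control cultures, 185 at the low and 468 at the high FGF9 dose, and 161 with FGF2, a 3.42-fold increase (1.87 to 6.24, adjusted p = 0.00500). Ahnak had 562, 673, 1580 and 631, a 2.81-fold increase at the high dose (1.61 to 4.90, adjusted p = 0.0149). The lower gene was Htr1b, a serotonin receptor whose place at the cell surface depends on S100a10, with a ratio of 0.648 (0.504 to 0.834, adjusted p = 0.0320). Stip1, a cochaperone that binds S100 proteins, had a ratio of 0.925 and did not pass (adjusted p = 0.0922). Between 20 ng/mL FGF9 and FGF2, where 1.17% of all genes tested were called, 3 of the 35 were called. Ahnak2 was higher (2.91-fold, adjusted p = 0.0448) and Htr1b lower (ratio 0.624, adjusted p = 0.0304). Pla2g4a, the phospholipase A2 that annexin A1 is known to inhibit, was 6.62-fold higher (2.66 to 16.4, adjusted p = 0.00794). It was at a derived mean of 99.7 in control cultures, 80.1 and 170 at the low and high FGF9 doses and 25.7 with FGF2. It was not called in any comparison with control, and the FGF2 level was the lowest of the 4.

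Other calcium-binding families were counted as well, and whether they differ from the members was not tested. Of 29 other EF-hand genes tested, none was higher with 20 ng/mL FGF9 and 1 was lower. Of all genes tested 1.76% were higher there and 0.986% lower. The lower gene was Nucb1 of the Golgi (ratio 0.859, 0.791 to 0.932, adjusted p = 0.0147), and the median of the 29 was -0.06 on the log2 scale. Efhd2, Rcn1 and Calm2, which had the next smallest p, had ratios of 0.854, 1.14 and 0.906 and did not pass. Of 25 genes with C2 domains or related phospholipid binding, such as synaptotagmins and copines, none was called by the DESeq2 test at 20 ng/mL FGF9, where 2.75% of all genes tested were. In that list 5 had an unadjusted p under 0.05, as had 12.0% of all genes tested, and the median was -0.18. The smallest p in that list belonged to Syt2, Syt6, Cpne5 and Fer1l4, with ratios of 0.531, 0.526, 0.807 and 0.126 and adjusted p between 0.0776 and 0.175. Of 7 fused-type S100 genes, which build the skin barrier, 4 were listed at 0 and Tchh alone was tested, with a ratio of 1.15 (0.718 to 1.84).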

How the data were processed

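THY-1+ germ cell cultures were profiled by bulk RNA-seq (TruSeq Stranded mRNA libraries). The authors used Salmon and STAR for alignment to GRCm38 and DESeq2 for the comparison of treatments (submitters' processing notes). For their versions, the model formula, filters and whether counting used strand, nothing is given in the sources used here. No value per library stands in the deposited table, and 0 per-sample columns were left unused. Each gene has a mean of normalized counts across libraries, a signal that the authors scaled by size factors. The deposited columns for each of 3 comparisons with control are a log2 fold change with its standard error on the log2 scale, a Wald statistic, a p-value, and an adjusted p-value. The authors' comparison columns were the only input that separates the groups, so they were used as input. Their adjusted p-values served only as an alternative.

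From these values fold changes with 95% normal intervals, derived group means (equal group sizes assumed) and the dispersion implied by the standard errors were computed. The 3 dispersions of a gene had correlations of at least 0.99982 across the 10684 genes whose mean reached 200 normalized counts, which are not independent replicates. Contrasts between treatments used the derived means, the mean implied dispersion and 3 libraries per group, left out genes whose derived mean fell below 1 in any group, and took the groups as unpaired. Benjamini-Hochberg adjustment of the p-values ran over the 17755 genes whose mean reached 10, or 17726 of them for contrasts between treatments. The calculation was run on simulated data whose standard errors were made with the same formula. That run checks the arithmetic and not the errors that DESeq2 fitted. Levels per kb used the longest coding transcript of the annotation (GENCODE, GRCm38), to which all 26 genes were matched by identifier. Python packages were numpy 2.4.6, pandas 2.3.3, scipy 1.17.1 and matplotlib 3.10.9.

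The members and gene lists were chosen with earlier results of these data known. Every member with a mean of at least 10 is given, and members under 10 are counted and named. Of each list up to 4 genes with the smallest p at 20 ng/mL FGF9 are named, with the fibroblast markers called there. Pla2g4a and Fstl1, named for the contrasts between treatments, were chosen after their values were seen, and 1 further gene of the lists is not reported here. Anxa13 (a lncRNA in the table), S100z, S100a7a, S100pbp, Anxa11os and S100a11-ps were outside the naming rule. Alternatives were no filter or a minimum mean of 50, the adjusted p-values as deposited, recentring on the median fold change, 4 libraries per group, the dispersion of a single comparison and an added minimum fold change.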

Additional observations from a re-analysis of the deposited data

How the results depend on the processing

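With a minimum mean of 50 normalized counts, the number of members called with FGF2 went from 2 to 1: S100a2 was no longer tested and Anxa1 was still called. With that minimum the count at 20 ng/mL FGF9 against control stayed at 5 but changed its members, from 4 higher and 1 lower to 5 higher and 0 lower, as S100a2 dropped out and Anxa5 entered. The other counts of members called stayed within 1.5 times their values under every alternative run. Of 462 values of single members under the alternatives, 459 kept their direction and their side of the threshold. Several alternatives could change little by construction, so this count does not measure robustness. The assumed number of libraries nearly cancels in the contrasts, the dispersions of a gene nearly coincide, and the medians used for recentring lay between -0.001 and 0.003. Anxa5 had an adjusted p of 0.0445 at 20 ng/mL FGF9 with the minimum mean of 50. S100a10 was lost at 20 ng/mL FGF9, against control and against 1 ng/mL FGF9, when an absolute log2 fold change of at least 1 was also required, since its folds were 1.86 and 1.76. No value changed direction, but only the recentring altered any fold change. No paired analysis was possible because the deposited table holds no values per library, so the contrasts between treatments took the groups as independent although they share culture numbers, and for the same reason leaving out each library was not run. Whether 1 culture carries any of these results was therefore not tested. The assumed 3 libraries per group entered the intervals of the derived means and the contrasts between treatments. Intervals of the ratios to control used the deposited standard errors and not this assumption. Which libraries were used and their depth are unknown, and this limits the reading of every interval given here.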
